A study of Capra hircus with 24 samples.

Results

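The genes described here assemble triglyceride, the main fat of milk, or regulate fat synthesis, and were followed in RNA of goat milk and blood. They are 10 genes given as cattle RefSeq transcripts, namely GPAM (NM_001012282), AGPAT6 (NM_001083669), AGPAT1 (NM_177518), LPIN1 (NM_001206156), DGAT1 (NM_174693), DGAT2 (NM_205793), SREBF1 (NM_001113302), INSIG1 (NM_001077909), PPARG (NM_181024) and THRSP (NM_001040525). All non-control probes that carry one of these accessions were taken, which gave 23 probes of 43653 and 10 accessions of 26748 on the array. The array files give accessions and no gene symbols, so the symbols are those of the list that chose the members. In the goat gene table (assembly ARS1.2) AGPAT6 is listed as GPAT4. The array was designed for cattle, and mismatches between its probes and goat transcripts can lower a reading.

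RNA came from 8 healthy female goats in lactation 3, with 4 animals of the breed Polish White Improved (PWI) and the same number of Polish Fawn Improved (PFI). From each animal 3 RNA sources were hybridised to 1 two-colour array each, which makes 24 arrays in 6 groups of 4. Milk somatic cells (MSC) are whole cells found in milk, PNCB (peripheral nuclear cells of blood) are the nucleated cells that remain after red cell lysis, and milk fat globules (MFG) are secreted fat droplets that enclose some cytoplasm of the cell that made them. No group carried an experimental allele or agent. Cy5 always marked the goat's own RNA, and the Cy3 channel always held one pool of blood nuclear cell RNA from 7 other healthy goats in lactation 4 (4 PWI and 3 PFI). The extraction kit used for milk differed from that used for blood, and its effect cannot be told apart from the source wherever PNCB is compared. In these mixed samples, fewer cells of a type and less RNA per cell cannot be told apart either. The 3 sources were not checked against marker genes here, because the array files name no marker.

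In mammals triglyceride is built on glycerol 3-phosphate, to which GPAM in mitochondria or AGPAT6 in the endoplasmic reticulum adds the first fatty acid and AGPAT1 the next. LPIN1 then removes the phosphate to give diacylglycerol, and DGAT1 or DGAT2 adds the last fatty acid. SREBF1 encodes a transcription factor of lipid synthesis that INSIG1 holds back in the endoplasmic reticulum. PPARG encodes a nuclear receptor that drives fat storage genes, and THRSP encodes a small protein that promotes fatty acid synthesis. In the lactating mammary gland of ruminants these steps serve the secretion of milk fat.

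A value below is a log2 ratio of the Cy5 sample over the Cy3 blood reference, after background correction and loess normalization within the array. A value of 0 is therefore the typical ratio of probes of like brightness on that array, and a step of 1 is a 2-fold step in the ratio. The background correction draws the ratios of dim probes toward 0, so such a step need not be a 2-fold difference in RNA. Sources were compared in 1 limma model of all 24 arrays with 6 group means, and p-values are Benjamini-Hochberg values adjusted over all 27381 probes tested, with a threshold of 0.05. Testing required a Cy5 signal well above background throughout 1 or more of the groups of 4 arrays. That held for 21 of the 23 probes and for 9 of the 10 genes. The untested probes were 1 of 3 for DGAT1 (A_73_P475548) and the only THRSP probe. A gene has 1 to 3 probes, its lead probe is the brightest one tested, and levels are not compared between probes.

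On 4 arrays the signal stood apart from the other 20. The Cy3 channel was well above background for 20.4% and 19.9% of probes in PNCB of PWI goats 3 and 4, and for 88.0% and 71.5% in MFG of PWI goats 2 and 4, against 41.5% to 57.1% on the other arrays. Results are given with these arrays, and without them where that matters. Each group lay on its own slide, and all MFG arrays were scanned on another day than the rest, so that MFG cannot be told apart from its scan day.

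Both milk sources held more RNA of most of these genes than blood did, relative to the same reference. Median centring in place of loess moved the median of all tested probes in MFG against PNCB from -0.13 to -0.82. The lead probes of AGPAT1 (-0.84), DGAT1 (-0.33) and SREBF1 (-0.09) then turned below 0, and those of AGPAT1 and DGAT1 were called lower. With loess, 13 of the 21 tested probes in MSC, of 7 genes, were higher than in PNCB and 0 were lower. Among all tested probes, 22.5% were higher and 27.1% were lower in that comparison. In MFG 14 probes, of 7 genes, were higher than in PNCB and 3 were lower, against 25.5% and 38.4% of all tested probes. All 3 lower probes were those of DGAT2. A probe can pass the filter without the dimmer source, which favours such calls. Against PNCB this holds for GPAM A_73_120284, and in MFG also for LPIN1 A_73_P082956 and A_73_P255331. Each of them was well above background on 0 of 8 PNCB arrays. It also holds against PNCB for the GPAM lead probe (A_73_P250886), which was so on 2 of 8 PNCB arrays. For lower values in MFG it holds for DGAT2 A_73_P319411 and A_73_118582, each well above background on 3 of 8 MFG arrays. Between the milk sources, 6 probes were higher in MFG (3 of GPAM, 2 of LPIN1 and 1 of INSIG1) and 5 were lower (3 of DGAT2 and 2 of PPARG), against 12.6% and 22.2% of all tested probes. The split depended on scaling: median centring gave 5 higher and 10 lower, with 66.5% of all tested probes called in either direction and a median of all tested probes of -0.61, and the scanner software's processed signals gave 3 higher and 8 lower, with 38.7% of all called. Source groups did not overlap for 5 probes higher in MSC than in PNCB (9.4% of all tested probes), 5 higher in MFG than in PNCB (8.39%), 2 higher in MFG than in MSC (1.09%) and 3 lower in MFG than in MSC (10.8%). Some of these probes passed the filter without the dimmer source, which favours such gaps, so the counts are not separate support. Against PNCB they are the GPAM lead probe in both milk sources, and in MFG also GPAM A_73_120284 and LPIN1 A_73_P082956. Between the milk sources they are INSIG1 A_73_P429676 (0 of 8 MSC arrays well above background) and DGAT2 A_73_P319411 and A_73_118582 (3 of 8 MFG arrays each). The median log2 difference over the 21 probes was 0.50 between MSC and PNCB (-0.04 over all tested probes), 0.61 between MFG and PNCB (-0.13) and 0.20 between MFG and MSC (-0.02). Both comparisons with blood use the same PNCB arrays and are therefore not independent.

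**Figure D1:**
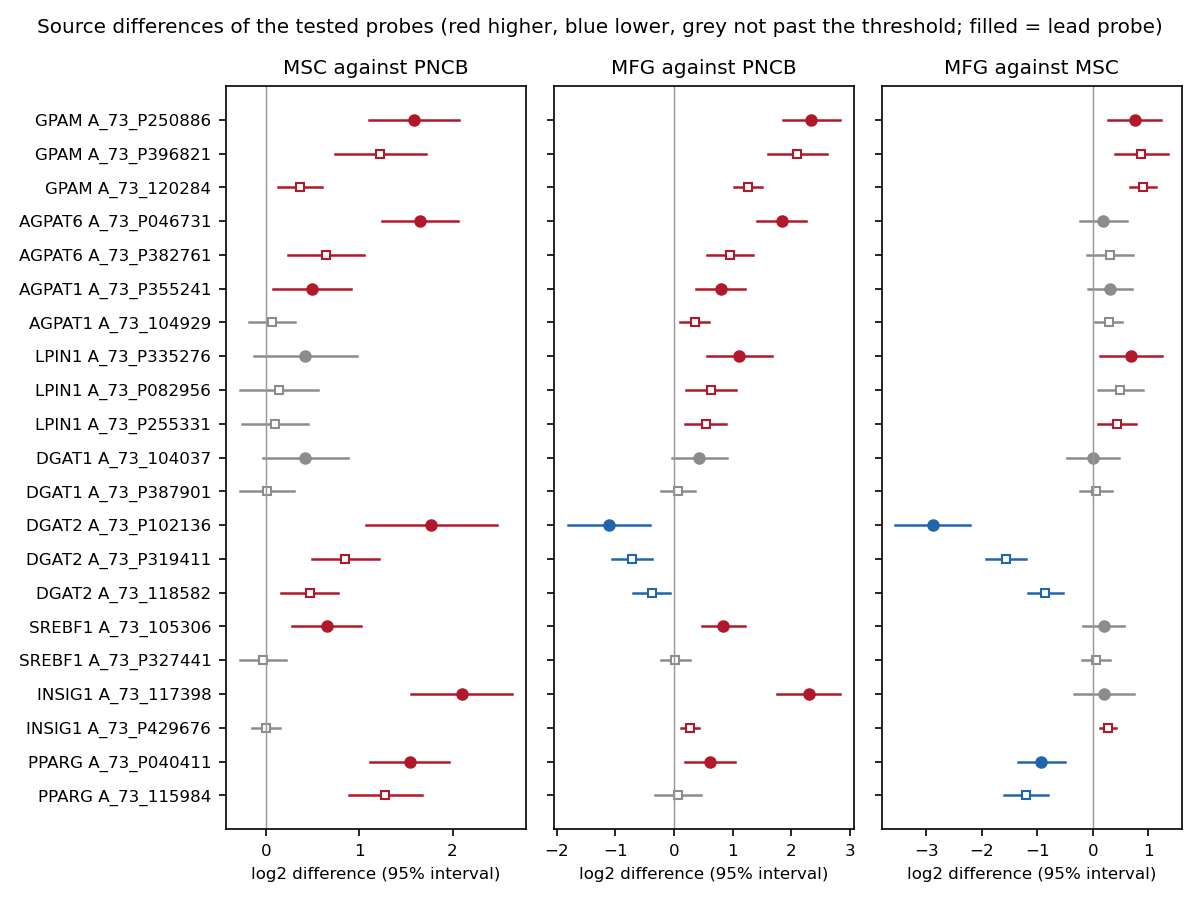
Log2 difference (horizontal axis) with its 95% interval for each of the 21 tested probes (rows) in the 3 comparisons of sources (panels), from the model of 24 arrays. Red marks are higher and blue marks are lower past the threshold, grey marks did not pass it, and filled circles are lead probes. DGAT2 has 3 red marks in MSC against PNCB and 3 blue marks in both comparisons of MFG, and GPAM has 3 red marks in every panel. Under median centring the lead probes of AGPAT1 and SREBF1 in MFG against PNCB, and of GPAM in MFG against MSC, read below 0, where the median of all tested probes is -0.82 and -0.61.

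GPAM, which starts triglyceride synthesis, was highest in MFG, intermediate in MSC and lowest in PNCB. Its lead probe (A_73_P250886) read 2.84, 0.67, 2.62 and 1.86 in MFG of PWI goats 1 to 4, and 2.45, 3.49, 3.19 and 3.29 in MFG of PFI goats 1 to 4. In MSC its lowest, median and highest values were 1.22, 1.90 and 2.23, and in PNCB they were -0.10, 0.20 and 0.51. Every MFG and MSC value lay above every PNCB value, while the milk sources overlapped, with PWI goat 2 below and PWI goat 4 within the MSC range in MFG. The difference from PNCB was 2.34 (SE 0.234, adjusted p = 1.06e-08) for MFG and 1.59 (SE 0.234, adjusted p = 6.41e-06) for MSC. Both passed in all 13 other settings tried, but their size ran from 1.58 to 5.47 for MFG and from 1.06 to 4.79 for MSC. In Cy5 the lead probe was well above background on only 2 of 8 PNCB arrays. Both sizes therefore rest on a PNCB signal near background. The lead probe passed the filter through milk groups alone, which favours both calls and the lack of overlap with PNCB.

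MFG exceeded MSC in GPAM by 0.75 (SE 0.234, adjusted p = 0.0153) and in 6 of 8 goats. That call was lost without PWI goat 3 (adjusted p = 0.0733) or PFI goat 2 (adjusted p = 0.102). It passed in 7 of 13 other settings, and the difference ran from -0.0048 under median centring (all tested probes -0.61) to 1.17 in the PFI goats alone, and it was 0.34 (adjusted p = 0.688) in the PWI goats alone. Without the 4 arrays that stood apart it was 1.12 (adjusted p = 9.06e-05). The other GPAM probes were higher in MFG than in MSC by 0.88 (A_73_P396821, adjusted p = 0.00572) and 0.90 (A_73_120284, adjusted p = 2.08e-06), and the last of these did not overlap between the milk sources. A_73_120284 was well above background on 0 of 8 PNCB arrays. It was higher than there in MFG (adjusted p = 2e-09) and in MSC (adjusted p = 0.0106), and no size is given, since PNCB was not well above background. It passed the filter through milk groups alone, so these calls are not separate support for the lead probe.

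AGPAT6, the endoplasmic reticulum enzyme for the first fatty acid, was higher in both milk sources than in blood. Its lead probe (A_73_P046731) ranged from 1.05 to 2.58 in MSC (median 1.81), from -0.31 to 0.69 in PNCB (median 0.08) and from 0.57 to 2.49 in MFG (median 2.29, 7 goats, since the spot of PWI goat 1 was left out by its outlier flag). MSC and PNCB did not overlap, and in MFG only PWI goat 2 fell into the PNCB range. The differences from PNCB were 1.65 (SE 0.196, adjusted p = 4.26e-07) for MSC and 1.84 (SE 0.204, adjusted p = 7.81e-08) for MFG. Under median centring the MFG difference was 0.80, and both passed in all 14 other settings. Its other probe gave smaller differences, 0.65 for MSC and 0.95 for MFG, that also passed (adjusted p = 0.00951 and 0.000162). MFG and MSC differed by 0.19 (95% interval -0.24 to 0.61, adjusted p = 0.522). Without the 4 arrays that stood apart this was 0.50 (adjusted p = 0.0379), and under median centring it was -0.85, against -0.61 for the median of all tested probes. It also passed in PFI goats alone (0.90, adjusted p = 0.00235), while it was -0.52 in PWI goats alone (adjusted p = 0.463).

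**Figure D2:**
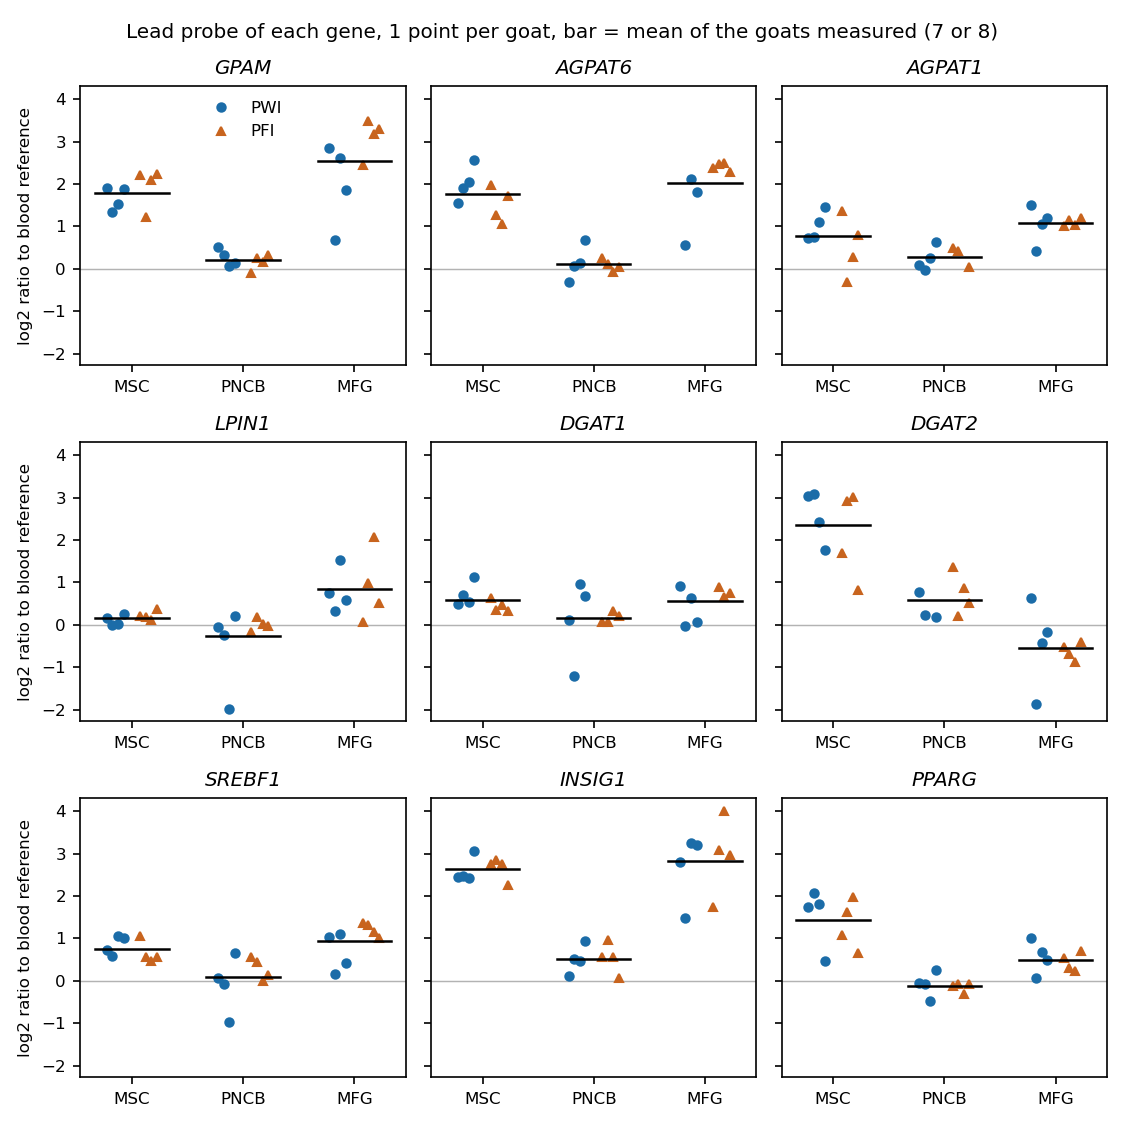
Log2 ratio to the blood reference (vertical axis) of the lead probe of 9 genes (panels) in the 3 sources (horizontal axis), with 1 point per goat (circles PWI, triangles PFI) and a bar at the mean. GPAM and INSIG1 sit higher in every milk sample than in any PNCB sample, and DGAT2 sits at or above 0.82 in all 8 MSC samples and at or below 0.63 in all 8 MFG samples. The MFG value of PWI goat 2 is the lowest or second lowest MFG value in every panel.

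AGPAT1, which adds the second fatty acid, differed less. The lead probe (A_73_P355241) averaged 0.77 ± 0.58 (SD, n = 8) in MSC, 0.27 ± 0.25 (SD, n = 7) in PNCB and 1.08 ± 0.30 (SD, n = 8) in MFG. MFG exceeded PNCB by 0.80 (SE 0.200, adjusted p = 0.00146) and in 7 of 7 goats. Under median centring this turned to -0.84 and was called lower (adjusted p = 0.00145), where the median of all probes was -0.82. The direction of this call therefore depended on the normalization. The other probe gave 0.35 (adjusted p = 0.0138). MSC exceeded PNCB by 0.50 (SE 0.200, adjusted p = 0.0444), a call that was lost in 20 of 32 fits that each left out 1 goat or array and in 6 of 14 other settings, and the other probe gave 0.07 (adjusted p = 0.660). That other probe was dimmer, with Cy3 well above background on 8 of 24 arrays, against 24 for the lead probe.

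LPIN1, the phosphatidate phosphatase, was raised in MFG and varied widely between goats there. The lead probe (A_73_P335276) read 0.76, 0.32, 1.52 and 0.59 in MFG of PWI goats 1 to 4, and 0.06, 0.99, 2.08 and 0.51 in MFG of PFI goats 1 to 4. In MSC it stayed between 0.01 and 0.37, and in PNCB between -0.23 and 0.21 apart from PWI goat 3, whose array stood apart and which read -1.97. PFI goat 3 was the highest MFG sample on all 3 LPIN1 probes, with 2.08, 2.21 and 1.75. MFG exceeded PNCB by 1.11 (SE 0.267, adjusted p = 0.000961), and the other probes passed as well (adjusted p = 0.00938 and 0.00845). Those other probes were well above background on 0 of 8 PNCB arrays, so they passed the filter through milk groups alone and no size is given for them. The lead probe was well above background on 4 of 8 PNCB arrays. Its size therefore rests on a PNCB signal near background and includes the -1.97 of PWI goat 3. The lead difference passed in all 13 other settings, with values from 0.75 to 1.89.

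LPIN1 also exceeded MSC in MFG by 0.69 (SE 0.267, adjusted p = 0.0495), and in 7 of 8 goats. That call sat at the threshold: with goat as a block the adjusted p was 0.0677, and it was lost in 26 of 32 fits that left out 1 goat or array and in 7 of 13 other settings. Without the 4 arrays that stood apart it was 0.86 (adjusted p = 0.00434). MSC and PNCB differed by 0.42 on the lead probe (95% interval -0.13 to 0.98, adjusted p = 0.195).

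The enzymes of the last step behaved differently from each other. DGAT1 was not called in any comparison of sources as analysed here, but calls appeared in some other fits. Its lead probe (A_73_104037) averaged 0.58 ± 0.25 (SD, n = 8) in MSC, 0.15 ± 0.63 (SD, n = 8) in PNCB and 0.56 ± 0.38 (SD, n = 7) in MFG. The PNCB values spread from -1.21 (PWI goat 2) to 0.96 (PWI goat 3). MSC exceeded PNCB by 0.42 (95% interval -0.03 to 0.88, adjusted p = 0.111) and MFG exceeded it by 0.43 (95% interval -0.04 to 0.90, adjusted p = 0.101), while MFG and MSC differed by 0.01 (95% interval -0.46 to 0.47). Without the 4 arrays that stood apart, DGAT1 was higher than in PNCB by 0.76 in MSC (adjusted p = 0.0008) and by 0.96 in MFG (adjusted p = 0.000207). Leaving out 1 goat or array moved these differences from PNCB between 0.20 and 0.59 for MSC and between 0.21 and 0.58 for MFG, and 2 of 32 such fits called each. Array weights called both, PFI goats alone called MFG (0.60, adjusted p = 0.00104), and processed signals called MSC (1.15, adjusted p = 0.0127). Under median centring MFG was called lower than PNCB (-0.33, adjusted p = 0.0481), above the median of all tested probes (-0.82). MFG against MSC was called under median centring (-0.58, adjusted p = 0.00211) and in PFI goats alone (0.33, adjusted p = 0.0496). The other tested probe (A_73_P387901) gave 0.01 for MSC and 0.07 for MFG against PNCB, with adjusted p of 0.953 and 0.654.

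DGAT2 had the largest difference between the milk sources among the lead probes, here and in the 13 other settings in which its lead probe was tested. Its lead probe (A_73_P102136) read 3.04, 3.08, 2.42 and 1.78 in MSC of PWI goats 1 to 4, and 1.69, 2.93, 3.02 and 0.82 in MSC of PFI goats 1 to 4. In MFG the same goats read 0.63, -1.87, -0.43 and -0.16 (PWI) and -0.51, -0.69, -0.88 and -0.40 (PFI). Every MSC value lay above every MFG value. In PNCB it ranged from 0.20 to 1.37 (median 0.52, 7 goats).

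MFG was lower than MSC in DGAT2 by a log2 difference of -2.89 (SE 0.325, adjusted p = 5.46e-07), a 7.39-fold difference found in 8 of 8 goats. The difference ran from -4.40 to -1.75 in the other settings and passed in all 13. The other probes gave -1.56 (A_73_P319411, adjusted p = 4.57e-07) and -0.85 (A_73_118582, adjusted p = 0.000144), and none of the 3 probes overlapped between the milk sources, against 10.8% of all tested probes that were lower in MFG without overlap. Each of these other probes was well above background on only 3 of 8 MFG arrays. They passed the filter through MSC or PNCB groups alone, and their sizes rest on MFG signals near background. They are therefore not separate support for the lead probe. MSC exceeded PNCB by 1.77 (SE 0.338, adjusted p = 0.000159). MFG was lower than PNCB (-1.11, SE 0.338, adjusted p = 0.00665), a difference that ran from -2.82 to -0.74 in 13 other settings and did not pass in the PWI goats alone (-0.86, adjusted p = 0.172). The Cy3 signal of this probe, which came from the same RNA on every array, was itself lower on the MFG arrays than on PNCB (-0.44, adjusted p = 0.00036) and MSC arrays (-0.47, adjusted p = 0.000141). Its part in the result was not tested. On the Cy5 channel alone MFG was lower than PNCB by a log2 difference of -1.71 (adjusted p = 0.000894).

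SREBF1, the transcription factor, had a lead probe that rose in both milk sources and a dimmer probe that was not called against PNCB. The lead probe (A_73_105306) averaged 0.75 ± 0.24 in MSC, 0.95 ± 0.43 in MFG and 0.10 ± 0.51 in PNCB (SD, n = 8 per source). MSC exceeded PNCB by 0.65 (SE 0.180, adjusted p = 0.00454), which did not pass in the PFI goats alone (0.38, adjusted p = 0.0760). MFG exceeded PNCB by 0.84 (SE 0.180, adjusted p = 0.000299), which did not pass in the PWI goats alone (0.76, adjusted p = 0.0596) and read -0.09 under median centring, above the median of all tested probes there (-0.82). The other probe (A_73_P327441) gave -0.03 and 0.02 in those comparisons, with adjusted p of 0.835 and 0.883. MFG and MSC differed by 0.19 (95% interval -0.18 to 0.57, adjusted p = 0.448), and by 0.39 without the 4 arrays that stood apart (adjusted p = 0.0118).

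INSIG1, which retains the SREBF1 precursor, was higher in both milk sources than in blood on its lead probe. Its lead probe (A_73_117398) ranged from 2.26 to 3.06 in MSC (median 2.61), from 0.06 to 0.95 in PNCB (median 0.54) and from 1.48 to 4.01 in MFG (median 3.03). Neither milk source overlapped with PNCB. MSC exceeded PNCB by 2.10 (SE 0.262, adjusted p = 6.09e-07), a 4.29-fold difference, and MFG exceeded PNCB by 2.30 (SE 0.262, adjusted p = 7.96e-08), a 4.91-fold difference. Both passed in all 14 other settings, with the MSC difference at 1.05 when probes were averaged and the MFG difference at 1.29 when probes were averaged and 0.73 under median centring. The reference signal of this probe was lower on MFG than on PNCB arrays (-0.40, adjusted p = 0.00343). MFG and MSC differed by 0.20 on this probe (95% interval -0.35 to 0.74, adjusted p = 0.613), which turned to -1.17 under median centring, against -0.61 for the median of all tested probes.

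The other INSIG1 probe (A_73_P429676) was dim. It was well above background on 0 MSC, 4 PNCB and 6 MFG arrays. It was not called between MSC and PNCB (adjusted p = 0.955) and was higher in MFG than in MSC (adjusted p = 0.00562). No size is given for these comparisons, since MSC was not well above background. Against PNCB it was higher in MFG by 0.28, a size that rests on a PNCB signal near background and is not separate support for the lead probe. Being dim, it cannot show whether MSC differed from PNCB.

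PPARG, the nuclear receptor of fat storage, was highest in MSC. Its lead probe (A_73_P040411) read 1.74, 2.06, 1.82 and 0.46 in MSC of PWI goats 1 to 4, and 1.08, 1.61, 1.99 and 0.66 in MSC of PFI goats 1 to 4. In PNCB it ranged from -0.48 to 0.26 (median -0.07) and in MFG from 0.07 to 1.0 (median 0.52). No MSC value fell into the PNCB range, while the values of the goats numbered 4 in both breeds lay within the MFG range.

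MSC exceeded PNCB in PPARG by 1.54 (SE 0.205, adjusted p = 1.55e-06), and the other probe (A_73_115984) by 1.28 (adjusted p = 6.77e-06). MFG was lower than MSC by a log2 difference of -0.93 (SE 0.205, adjusted p = 0.00112) in 6 of 8 goats, and by -1.21 on the other probe (adjusted p = 2.96e-05) in 8 of 8 goats. That other probe was well above background on only 5 of 8 MFG arrays, so its size and goat count rest partly on signals near background. In the other settings the lead difference ran from -1.87 to -0.79, and it did not pass in the PWI goats alone (adjusted p = 0.0651). MFG exceeded PNCB by 0.61 on the lead probe (SE 0.205, adjusted p = 0.012), and by 0.07 on the other (adjusted p = 0.745). The lead call was lost without PWI goat 3 (adjusted p = 0.0515) and in 4 of 14 other settings, namely median centring (0.38, adjusted p = 0.208), flagged spots kept in the background fit (0.40, adjusted p = 0.149), averaged probes (0.34, adjusted p = 0.118) and PWI goats alone (0.64, adjusted p = 0.118).

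**Figure D3:**
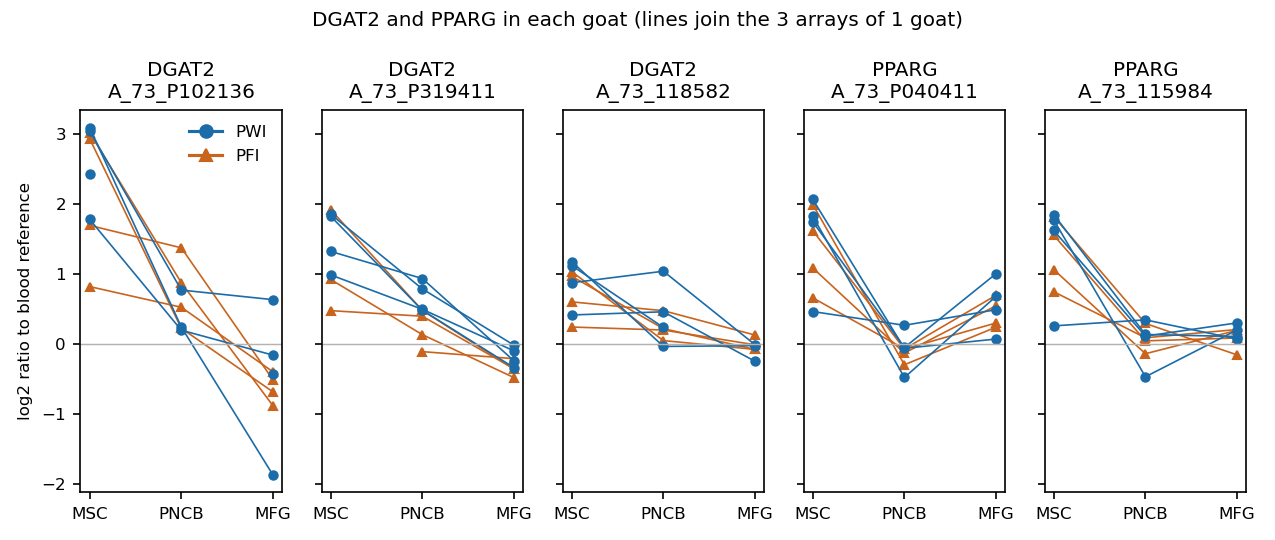
Log2 ratio to the blood reference (vertical axis) of the 3 DGAT2 and 2 PPARG probes (panels) in the 3 sources (horizontal axis), with lines joining the arrays of 1 goat (circles PWI, triangles PFI; a missing point is a flagged spot). DGAT2 on its lead probe falls from MSC to MFG in all 8 goats, and PPARG on its lead probe falls from MSC to MFG in 6 of 8.

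Across goats, no relation between 2 lead probes within a source passed the threshold after adjustment. Of 108 pairs examined, 22 had an exact permutation p for Pearson's r below 0.05 before adjustment and 0 after. In MSC the values of DGAT2 and PPARG gave r = 0.875 (exact permutation p = 0.00846, adjusted p = 0.101) and Spearman's rho = 0.810 (exact permutation p = 0.0218, adjusted p = 0.336, n = 8 goats), and r was 0.881 without the 2 goats farthest from the median DGAT2 value. In MFG r was 0.906 (exact permutation p = 0.00265, adjusted p = 0.101), rho was 0.857 (exact permutation p = 0.0107, adjusted p = 0.231, n = 8), and r was 0.696 without the 2 farthest goats, where PWI goat 2, whose array stood apart, was lowest for both genes. LPIN1 and PPARG in MSC gave r = -0.870 (exact permutation p = 0.0037, adjusted p = 0.101), rho = -0.952 (exact permutation p = 0.00114, adjusted p = 0.121, n = 8) and r = -0.805 without the 2 farthest goats. These pairs were picked after their values were seen. All genes of a goat were read on the same array. The LPIN1 lead probe was dim in MSC, with Cy3 well above background on 0 of 8 arrays and values only from 0.01 to 0.37.

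THRSP had 1 probe (A_73_P044881), well above background on 3 MSC, 1 PNCB and 2 MFG arrays. Its ratios lay between -0.28 and 0.29 on the arrays where it was measured, and no test was made.

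The reference gave little signal for many of the members. The Cy3 signal was well above background on at least 19 of 24 arrays for 6 probes and on at most 12 arrays for the other 17, and for the GPAM lead probe it was so on 1 array. For those 17 the ratio rests on a Cy3 signal near background on at least 12 arrays, and its size depends on the background correction. With the scanner software's processed signals GPAM differed from PNCB by 4.79 in MSC and 5.47 in MFG, against 1.59 and 2.34 here. Of the 21 tested probes, 5 differed in Cy3 between MFG and PNCB arrays (3 higher, 2 lower), 3 between MFG and MSC, and 0 between MSC and PNCB, and these were at most 0.47 in size on the log2 scale.

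**Figure D4:**
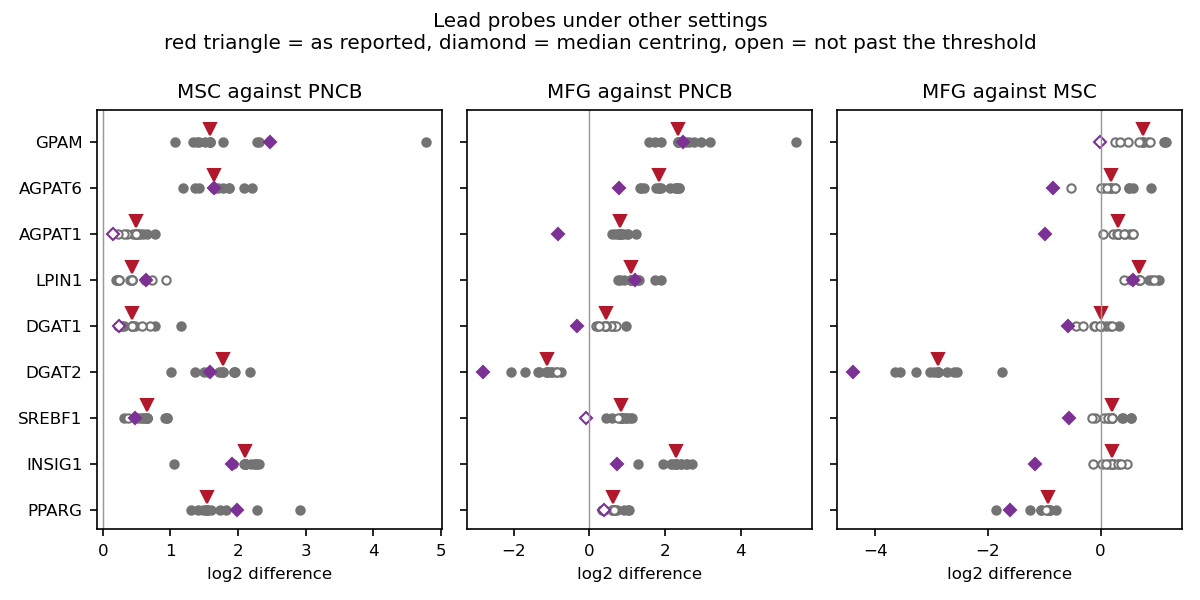
Log2 difference of each lead probe (rows) in the 3 comparisons (panels) as reported (red triangles) and under other settings (grey circles; purple diamonds for median centring in place of loess; open marks did not pass the threshold). DGAT2 stays below 0 in both comparisons of MFG under every setting shown. Median centring moves MFG differences down, to -0.84 for AGPAT1 against PNCB, where the median of all tested probes is -0.82.

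Differences between the breeds were tested within each source, over the 3 sources and as an interaction with source. None of the 21 probes passed in any of them by limma, where between 0% and 0.0146% of all tested probes did (0% in MSC, 0.011% in PNCB, 0.0146% in MFG, 0.00366% over the sources and 0.0146% for the interaction). At an unadjusted p below 0.05 there were 0 probes in MSC, 1 in PNCB, 3 in MFG, 1 over the sources and 2 for the interaction, against 4.39%, 3.56%, 8.58%, 6.23% and 6.13% of all tested probes.

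The 3 MFG probes were the lead probes of GPAM, AGPAT6 and SREBF1, all lower in PWI. GPAM was lower by a log2 difference of -1.10 (95% interval -2.14 to -0.06, adjusted p = 0.543) and AGPAT6 by -0.91 (95% interval -1.69 to -0.12, adjusted p = 0.543). AGPAT6 read 0.57, 2.12 and 1.81 in the 3 PWI goats measured and 2.37, 2.47, 2.49 and 2.29 in PFI, so the breeds did not overlap, as held for 8.48% of all tested probes. The median over all tested probes was -0.13 in the same comparison. The 2 PWI arrays that stood apart in MFG gave the lowest values of both genes. In PNCB the 1 probe was DGAT2 (A_73_P319411), higher in PWI by 0.45 (adjusted p = 0.973) with no overlap, as held for 5.05% of all tested probes.

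The 95% interval of the difference between breeds stayed inside a 2-fold change up or down for 16 of the 21 members in MSC, 19 in PNCB, 12 in MFG and all 21 over the sources. For the other probes the interval reached past 2-fold. Since each breed within a source lay on its own slide, breed and slide cannot be told apart.

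The spread between goats was measured as the SD within breeds. Over the members its median was 0.245 for MSC (0.198 over all tested probes), 0.346 for MFG (0.234) and 0.277 for PNCB (0.293). Among the lead probes the MFG array of PWI goat 2 gave the lowest MFG value in 8 of 9, and the MFG array of PFI goat 3 gave the highest in 3 of 9, namely AGPAT6, LPIN1 and INSIG1. Among probes of other accessions, the 2 with the pattern most like the GPAM lead probe over the 24 arrays were those of NM_001191180 (Pearson's r = 0.975) and NM_174068 (r = 0.973), of 11544 probes compared, which the array files leave unnamed.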

How the data were processed

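The 24 two-colour arrays were read per the file headers with Agilent Feature Extraction 10.7.3.1, and the array design names cattle build bosTau6. The authors' deposited scanner files hold median spot and background intensity in both channels, not normalized, with 0 or 1 flags per spot. The authors' deposited log10 ratios of Cy5 over Cy3 follow the software's background subtraction and dye normalization per the file headers, and equal the scanner ratios in all 45220 spots (largest difference 0). No other upstream step is given in the sources used here.

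With limma 3.58.1 in R 4.3.3, ratios were recomputed from those intensities. Outlier-flagged spots were left out, background was corrected by normexp (offset 50), ratios were normalized by loess with control spots unweighted, and spots of a probe were averaged. Well above background is the scanner software's own flag. Sources were fitted on 24 arrays (lmFit, eBayes), breeds on 8 arrays per source and on goat means over the sources, and the interaction by an F-test. The breeds over the sources were tested on 27334 probes, and the other fits on 27381. The number of arrays limits the precision. P-values measure the spread between goats. The fit was tested on simulated data.

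The labels number the goats alike in the 3 sources, which pairs the arrays by animal. Over 6278 probes, the 24 correlations of same-numbered arrays' deviations from their group means ran from -0.31 to 0.40 (median 0.03). The source fits have no block, and a goat block is among the alternatives. Other alternatives were median centring, processed signals, offset 10, Cy5 alone with quantile normalization, other treatment of flagged spots and of dim probes, array weights, averaged probes, slide as a random block, each breed alone and leaving out each goat or array.

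The named genes are all 10 members with every probe, and the 2 accessions most like the lead probe with the largest MFG difference from PNCB. The members, lists and tests were chosen with earlier results of these data known. Of the 26748 accessions on the array, 0 matched the goat gene table, so the wider pathway list and the cell type marker list were not used here. Probe and transcript sequences were not used here.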

Additional observations from a re-analysis of the deposited data

Results flagged for a closer look

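Within each group of 4 goats, a sample was marked where its gap to the nearest other sample, as a share of the group's range, was above Dixon's 95% critical value. Of 50 groups tested on the lead probes, 4 had such a sample, where chance gives about 2.5. All 4 were MSC samples.

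GPAM was low in PFI goat 2, at 1.22 against 2.08 to 2.23 in the other PFI goats. INSIG1 was high in PWI goat 4, at 3.06 against 2.43 to 2.47, and low in PFI goat 4, at 2.26 against 2.75 to 2.84. SREBF1 was high in PFI goat 1, at 1.06 against 0.47 to 0.57.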

How the results depend on the processing

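The counts of members past the threshold were 13 (MSC versus PNCB), 17 (MFG versus PNCB) and 11 (MFG versus MSC), where 49.6%, 63.9% and 34.8% of all tested probes were called. Leaving out 1 goat or array gave 12 to 13, 15 to 17 and 8 to 14, and 0 in every breed and interaction fit. Requiring signal on all 24 arrays, which left 8 members, gave 6, 6 and 1 (54.8%, 69.3% and 43.3% of all). Averaging the probes of an accession, which left 9 values, gave 6, 7 and 4 (52.2%, 67.1% and 36.3%). With flagged spots kept in the background fit, MFG gave 11 against PNCB and 6 against MSC (51.7% and 18.9%), and in the PWI goats alone it gave 9 and 5 (41.9% and 12.3%). Array weights gave 17 for MFG against MSC (58.0%). The cause of these shifts in the last 3 settings was not tested. Cy5 alone gave 9 higher and 5 lower for MFG against MSC (51.1% in either direction).

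Median centring moved the median of all probes to -0.17, -0.82 and -0.61 in the 3 comparisons. Against PNCB it turned the MFG differences of AGPAT1 to -0.84 (adjusted p = 0.00145), DGAT1 to -0.33 (adjusted p = 0.0481) and SREBF1 to -0.094 (adjusted p = 0.492). Against MSC it turned those of AGPAT1 to -0.98, AGPAT6 to -0.85, DGAT1 to -0.58, GPAM to -0.0048, INSIG1 to -1.17 and SREBF1 to -0.57. Relative to the shifted median, DGAT1 and SREBF1 against PNCB and GPAM, DGAT1 and SREBF1 against MSC lay above it, and the other 4 lay below. The cause was not tested.

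For the lead probes, the settings other than leaving out goats or arrays kept direction and side of the threshold in 306 values, lost a call in 26, gained one in 18 and reversed 19. The other 10 reversals were MFG differences from MSC that passed in neither setting. DGAT1 turned to -0.44 with processed signals, -0.13 with offset 10, -0.098 with flagged spots in the background fit, -0.0201 with the slide block and -0.32 in PWI alone, and ranged from -0.12 to 0.13 when 1 goat or array was left out. AGPAT6 turned to -0.0015 with flagged spots in the background fit and -0.52 in PWI alone, INSIG1 to -0.14 on Cy5 alone, and SREBF1 to -0.11 with processed signals and -0.16 in PWI alone. With goat as a replicate block the counts were 13, 17 and 9, and with slide as a random block 13, 17 and 10, where the LPIN1 call of MFG against MSC was lost under both. The replicate number as a block within sources gave 0 breed calls. Without the 4 arrays that stood apart, a setting added after seeing the data, the counts were 15, 19 and 14 (55.3%, 66.5% and 47.7%). One limit is signal over background, since Cy3 was well above it on at most 12 of 24 arrays for 17 of the 23 probes.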
